A study of Mus musculus with 2 samples.

Results

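The 7 genes mt-Nd1, mt-Nd2, mt-Nd3, mt-Nd4l, mt-Nd4, mt-Nd5 and mt-Nd6 encode the subunits of respiratory complex I that are made from mitochondrial DNA. They were taken by name from the deposited gene by cell tables, where all 7 had a row among 14366 genes. The tables come from mouse hematopoietic stem cells (HSC), sorted as Lin-Sca-1+c-Kit+CD150+CD48- cells from the pooled marrow of 8 wildtype C57/B6 mice aged 6 to 8 weeks. Whether both cultures came from the same sorted pool is not stated for each library. The cells were cultured for 48 h in Myelocult medium with stem cell factor at 100 ng/ml, thrombopoietin at 50 ng/ml and the antibiotic Primocin. The treated culture received 10 µM deferoxamine (DFO), an iron chelator, and the control culture received sterile water (vehicle). From each culture 20000 live cells were used for a 10x Genomics 3′ v3 library, which counts unique molecular identifiers (UMIs, here called molecules) near the 3′ ends of polyadenylated RNA. There was 1 library per condition, so differences were described without a test, and a difference between the cultures cannot be told apart from one between the library preparations or, if they differed, the pools of mice. Intervals are 95% intervals for counting error only and leave out variation between cells, cultures and preparations.

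Complex I takes electrons from NADH, passes them along a chain of iron-sulfur clusters to ubiquinone and pumps protons across the inner mitochondrial membrane. Its iron-sulfur clusters sit in nuclear-encoded subunits, while the mitochondrially encoded subunits form the core of the membrane arm. Mitochondrial DNA is transcribed from both strands into long RNAs that carry many genes. These are cut, mostly at the tRNAs between the genes, into single messages. Messages cut from the same long RNA are known to reach different levels, since early termination, cutting, polyadenylation and decay can differ from gene to gene.

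In mouse, 6 of the members lie on the same strand, in the order mt-Nd1, mt-Nd2, mt-Nd3, mt-Nd4l, mt-Nd4, mt-Nd5, and mt-Nd6 lies on the other. In GRCm38 (GENCODE M21) mt-Nd1 is at chrM:2751-3707, mt-Nd2 at chrM:3914-4951, mt-Nd3 at chrM:9459-9806, mt-Nd4l at chrM:9877-10173, mt-Nd4 at chrM:10167-11544, mt-Nd5 at chrM:11742-13565 and mt-Nd6 at chrM:13552-14070. Each is a single exon without introns. The genes mt-Nd4l and mt-Nd4 overlap by 7 bases, and mt-Nd5 and mt-Nd6 overlap tail to tail by 14 bases on opposite strands. Reads in the overlap of mt-Nd4l and mt-Nd4 could belong to either gene, since both lie on the same strand. For mt-Nd5 and mt-Nd6 the labels do not say whether counting used the strand. The overlapping ends are shown for this reason. Where the messages end was not examined, so the gene ends shown need not be the captured 3′ ends. All are written 5′ to 3′ on the gene's own strand, with the overlap in capitals.
mt-Nd4l, last 60 bases: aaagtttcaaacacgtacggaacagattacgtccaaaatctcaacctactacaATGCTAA
mt-Nd4, first 30 bases: ATGCTAAaaattattcttccctcactaatg
mt-Nd5, last 60 bases: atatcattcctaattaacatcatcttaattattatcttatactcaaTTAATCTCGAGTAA
mt-Nd6, last 60 bases: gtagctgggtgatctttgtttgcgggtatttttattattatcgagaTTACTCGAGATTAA

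Capture uses the poly(A) tail, so runs of A inside a gene are also of interest. Runs of 6 or more A were found 3 times in mt-Nd2, 2 times each in mt-Nd4 and mt-Nd5 and 1 time in mt-Nd1. None were found in mt-Nd3, mt-Nd4l or mt-Nd6. Whether any counted molecule came from such a run was not tested. The longest run of mt-Nd2 (8 A), a run of mt-Nd4 (7 A) and the longest of mt-Nd5 (7 A) are shown in capitals with their flanks.
mt-Nd2, chrM:4042-4069: actaatcaacAAAAAAAAcccacgatca
mt-Nd4, chrM:10217-10243: atcaagccctAAAAAAAcctgaacaaa
mt-Nd5, chrM:12626-12652: aaacgacatcAAAAAAAtcattgcctt

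Several members have near-identical copies in nuclear pseudogenes, of which none has a row in the tables. On chromosome 1, Gm10222 (chr1:24612407-24612700) matched mt-Nd4l at 100% over 294 bases, and Gm28439 (chr1:24611535-24612410) matched the first 876 bases of mt-Nd4 at 100%. Next to them, Gm28438 (chr1:24612775-24613119) matched mt-Nd3 at 99.71% over 345 bases, with the single substitution T3C counted from the first base of mt-Nd3. The copy Gm28439 stops short of the 3′ end of mt-Nd4, which is 1378 bases long. It is the best of 3 copies found for mt-Nd4, and whether the others reach that 3′ end is not described here. The best copies matched mt-Nd2 at 96.67% over bases 529 to 1038, its 3′ end, and mt-Nd5 at 95.18% over bases 706 to 1659 of 1824. Over the 4 copies found for each, the longest identical stretches were 129 bases for mt-Nd2 and 95 for mt-Nd5. Both are longer than the 91-base read. The best copies of mt-Nd6 (1 found) and mt-Nd1 (2 found) matched at 93.64% over 519 bases and 83.97% over 312. Over all copies of these 2 genes the longest identical stretches were 39 and 19 bases. The genes mt-Co2, mt-Atp6 and mt-Co3, used below for comparison, have 100% identical copies over 681, 678 and 783 bases. The labels and headers do not say how reads that match both places were counted, so levels and ratios of genes with such copies are uncertain to that extent, those of mt-Nd3 and mt-Nd4l along nearly their whole length. The start of mt-Nd3, chrM:9459-9578, and its last 60 bases are shown because the difference between the libraries was widest in this gene, with the base that differs from the copy in capitals.
mt-Nd3, first 120 bases: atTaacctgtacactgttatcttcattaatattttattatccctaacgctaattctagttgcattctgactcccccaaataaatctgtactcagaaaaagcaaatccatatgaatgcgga
mt-Nd3, last 60 bases: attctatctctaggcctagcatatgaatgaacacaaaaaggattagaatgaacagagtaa

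The vehicle library held 8708 cells with 260938938 molecules, a median of 27805.5 per cell. The DFO library held 9852 cells with 284326017 molecules, a median of 27114 per cell. The tables share 24 cell barcodes. Of 21 HSC markers 17 were at 5 CPM (a gene's molecules scaled to the total of the library) or more, and their summed level was 3040 CPM in vehicle and 3103 CPM in DFO. Megakaryocyte markers were also present, with 13 of 17 at 5 CPM or more and sums of 2552 CPM in vehicle and 1434 CPM in DFO. Erythroid markers summed to 962 and 937 CPM in vehicle and DFO, and neutrophil-monocyte markers to 277 and 254 CPM. Sums follow the most abundant markers. The median log2 difference of DFO minus vehicle was -0.24 over the 6 erythroid markers at 5 CPM or more. Over the 5 such neutrophil-monocyte markers it was -0.11. Stromal or endothelial markers summed to 55.2 and 50.9 CPM, and mast cell, lymphoid and macrophage markers each to 10.4 CPM or less. The libraries labelled HSC thus also held megakaryocyte, erythroid and neutrophil-monocyte transcripts.

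Transcripts of complex I made up 0.64% of all molecules in vehicle and 0.755% in DFO. That is a log2 difference of 0.24 (interval 0.24 to 0.24). The 6 other mitochondrially encoded genes together were at 3.16% and 3.59% of all molecules, a log2 difference of 0.18. The 7 members did not share one difference: mt-Nd3 was highest at 0.55, mt-Nd1 followed at 0.29, mt-Nd4l, mt-Nd4 and mt-Nd2 lay between 0.15 and 0.19, and mt-Nd5 and mt-Nd6 were near 0. The distance from the highest to the lowest member was 0.61 on the log2 scale, and the median member was at 0.19.

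The subunits ND1 and ND3 lie where the membrane arm meets the arm that carries electrons, beside the site where ubiquinone binds. The level of mt-Nd1 was 1348 CPM in vehicle (1344 to 1353) and 1648 CPM in DFO (1643 to 1653), so DFO was 1.22 times vehicle. The level of mt-Nd3 was 728 CPM in vehicle (725 to 731) and 1063 CPM in DFO (1059 to 1067), so DFO was 1.46 times vehicle. These are sums of 189949 and 302256 molecules of mt-Nd3. Both genes were higher in DFO by far more than their counting error. Among the 7476 genes that reached 10 CPM in at least 1 library, mt-Nd3 had the highest log2 difference, and mt-Nd1 ranked 52.

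ND2, ND4 and ND5 are the large antiporter-like subunits along the membrane arm. The level of mt-Nd2 was 1353 CPM in vehicle and 1499 CPM in DFO, a log2 difference of 0.15. For mt-Nd4 the levels were 2269 CPM and 2595 CPM, a log2 difference of 0.19. The level of mt-Nd5 was 368 CPM in vehicle (366 to 370.1) and 369 CPM in DFO (366 to 370.9), a log2 difference of 0.0033 (-0.0093 to 0.016). So 2 of the 3 pump-like subunits were higher in DFO, and for mt-Nd5 the interval included 0. The small subunits ND4L and ND6 complete the membrane core. The level of mt-Nd4l was 301 CPM in vehicle and 345 CPM in DFO, a log2 difference of 0.19 (0.18 to 0.21). The level of mt-Nd6 was 32.9 CPM in vehicle (32.2 to 33.6) and 31.5 CPM in DFO (30.8 to 32.1), a log2 difference of -0.063 (-0.11 to -0.022). It was the only member lower in DFO over all cells, and this direction did not hold in every class of cells described below.

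Against all 7476 genes, a log2 difference of 0.1 or more in favour of DFO was reached by 5 of the 7 members, and by 19.1% of all genes. At 0.25 or more it was reached by mt-Nd1 and mt-Nd3, and by 1.24% of all genes. At 0.5 or more it was reached by mt-Nd3 alone, which is 0.0134% of all genes. In the other direction no member reached 0.1 or 0.25, which 13.4% and 2.31% of all genes did. Above 0 were 6 of the 7 members and 58.7% of all genes. The median over all these genes was 0.021 and the central 95% ran from -0.24 to 0.21. Among the 282 genes at 500 CPM or more the central 95% was similar, from -0.21 to 0.20, so mt-Nd1 and mt-Nd3 lay outside the range of most abundant genes and the other 5 members inside it.

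**Figure D1:**
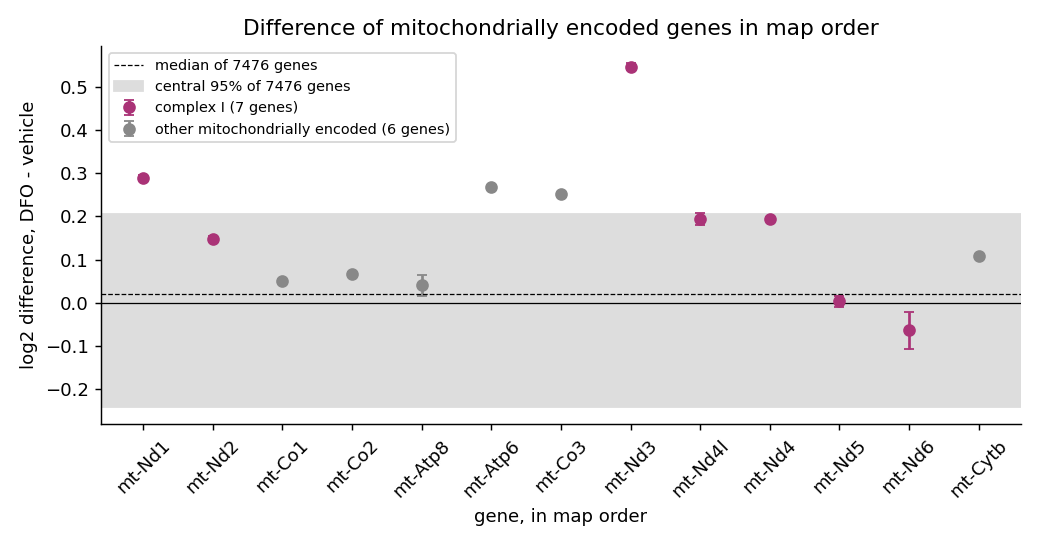
Log2 difference of DFO minus vehicle (y axis) for the 13 mitochondrially encoded protein genes in map order (x axis), with bars for the 95% counting interval and grey shading for the central 95% of 7476 genes. The point for mt-Nd3 stands highest at 0.55, while mt-Nd5 and mt-Nd6 lie at 0.0033 and -0.063.

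Differences did not run in one direction along the map. Among the genes just before mt-Nd3 on the same strand, mt-Co1, mt-Co2 and mt-Atp8 were at 0.051, 0.067 and 0.040 on the log2 scale, and mt-Atp6 and mt-Co3 were at 0.27 and 0.25. After mt-Nd3 came mt-Nd4l and mt-Nd4 at 0.19 each, then mt-Nd5, and mt-Cytb at 0.11. Values were thus low from mt-Co1 to mt-Atp8, higher from mt-Atp6 to mt-Nd4 with the peak at mt-Nd3, and lower again at mt-Nd5 and mt-Cytb. Ratios between neighbours put this without a nuclear denominator. For every 100 molecules of mt-Co3, the gene just upstream, there were 9.92 of mt-Nd3 in vehicle and 12.2 in DFO. For every 100 molecules of mt-Nd4l, the next gene downstream, there were 242 of mt-Nd3 in vehicle and 308 in DFO, a log2 difference of 0.35.

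The overlapping pair mt-Nd4l and mt-Nd4 had nearly the same ratio in both libraries over all cells. For every 100 molecules of mt-Nd4 there were 13.3 of mt-Nd4l in each library, a log2 difference of 0.00069 (-0.014 to 0.015). Of the 9 clusters of cells described below, 8 had an interval that included 0 for this ratio. The exception was the shallow cluster 7, with 10.7 in vehicle and 9.79 in DFO (log2 difference -0.12, interval -0.22 to -0.027). Another overlapping pair on that strand, mt-Atp8 and mt-Atp6, did not keep its ratio. There were 0.959 of mt-Atp8 per 100 of mt-Atp6 in vehicle and 0.819 in DFO, a log2 difference of -0.23 (-0.25 to -0.20). On the same strand mt-Atp6 also overlaps mt-Co3 by 1 base, and the log2 differences of these genes were 0.27 and 0.25. For every 100 molecules of mt-Nd4 there were 16.2 of mt-Nd5 in vehicle and 14.2 in DFO, a log2 difference of -0.19. The tail-to-tail pair differed less, with 8.95 molecules of mt-Nd6 per 100 of mt-Nd5 in vehicle and 8.54 in DFO (log2 difference -0.068, interval -0.11 to -0.024). Near the start of the strand there were 99.6 molecules of mt-Nd1 per 100 of mt-Nd2 in vehicle and 109.9 in DFO, a log2 difference of 0.14.

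Levels between genes were compared per length. In vehicle mt-Nd3 had the most molecules per cell and kilobase of the 7 (62.7), followed by mt-Nd4 (49.3), mt-Nd1 (42.2), mt-Nd2 (39.1), mt-Nd4l (30.4), mt-Nd5 (6.04) and mt-Nd6 (1.90). In DFO the order was the same, from 88.2 for mt-Nd3 to 1.75 for mt-Nd6. All members lay below the 461 molecules per cell and kilobase of mt-Atp6 in vehicle. The assay counts 3′ ends, so molecules need not scale with length, and the place of mt-Nd3 rests on the division by its short length. Undivided, mt-Nd3 had 21.8 molecules per cell in vehicle, against 68.0 for mt-Nd4, 40.5 for mt-Nd2 and 40.4 for mt-Nd1. Whether capture through the poly(A) tail differed between genes was not tested. A low value such as that of mt-Nd6 therefore need not mean a low RNA level.

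As a share of the molecules of all 13 mitochondrially encoded genes, mt-Nd3 made up 1.91% in vehicle (1.90 to 1.92) and 2.45% in DFO (2.44 to 2.45). The share of mt-Nd1 was 3.54% and 3.79%, and those of mt-Nd4 (5.96% and 5.97%) and mt-Nd4l (0.792% and 0.793%) were nearly equal in both libraries. The share of mt-Nd2 was slightly lower in DFO, 3.56% against 3.45%. For mt-Nd5 the share was 0.967% in vehicle and 0.848% in DFO, and for mt-Nd6 0.0865% and 0.0724%. So the level of mt-Nd5 in CPM was nearly equal while its share of mitochondrially encoded molecules was lower in DFO. Shares are parts of one whole, so a gene that differed less than the others loses share. Outside complex I the shares of mt-Co1 (10.98% and 9.96%), mt-Co2 (15.5% and 14.2%), mt-Atp8 (0.264% and 0.238%) and mt-Cytb (9.58% and 9.04%) were also lower in DFO. Those of mt-Atp6 and mt-Co3 were higher. Within complex I itself mt-Nd3 went from 11.4% in vehicle to 14.1% in DFO of the 7 genes' molecules, and mt-Nd4, the largest component, from 35.5% to 34.4%. Without mt-Nd3, the summed log2 difference of complex I was 0.194 (0.190 to 0.197). That of the 6 other mitochondrially encoded genes was 0.183 (0.181 to 0.184), and that of all 13 genes, which include complex I, was 0.192.

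The difference in mt-Nd3 was spread over most cells. Its level per cell in vehicle had a lower quartile of 525, a median of 694 and an upper quartile of 870 CPM (of the cell's own molecules), and in DFO these were 815, 1020 and 1251. The median vehicle cell held 19 molecules of mt-Nd3 and the median DFO cell 27. Of the DFO cells 86.1% lay above the vehicle median. The distributions still overlapped, since the lower quartile of DFO was below the upper quartile of vehicle. For mt-Nd1 the medians per cell were 1296 and 1591 CPM, and 74.1% of DFO cells lay above the vehicle median. For mt-Nd4 this share was 70.5%, for mt-Nd2 66.3% and for mt-Nd4l 63.0%. For mt-Nd5 it was 50.0%, with a median of 358 CPM in each library.

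Few cells lacked mt-Nd3: 33 vehicle cells and 5 DFO cells held none. For mt-Nd6 the median cell held 1 molecule in each library, and 44.7% of vehicle cells and 45.6% of DFO cells held none. After each cell was thinned to 10000 molecules, which left out 351 vehicle and 433 DFO cells, mt-Nd6 was seen in 26.2% and 26.0% of cells. No cell type here should lack these transcripts, so the part that free RNA in the droplets plays could not be bounded. At the same thinned depth the mean of mt-Nd3 was 7.08 molecules per cell in vehicle and 10.3 in DFO, and that of mt-Nd5 was 3.73 and 3.70.

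**Figure D2:**
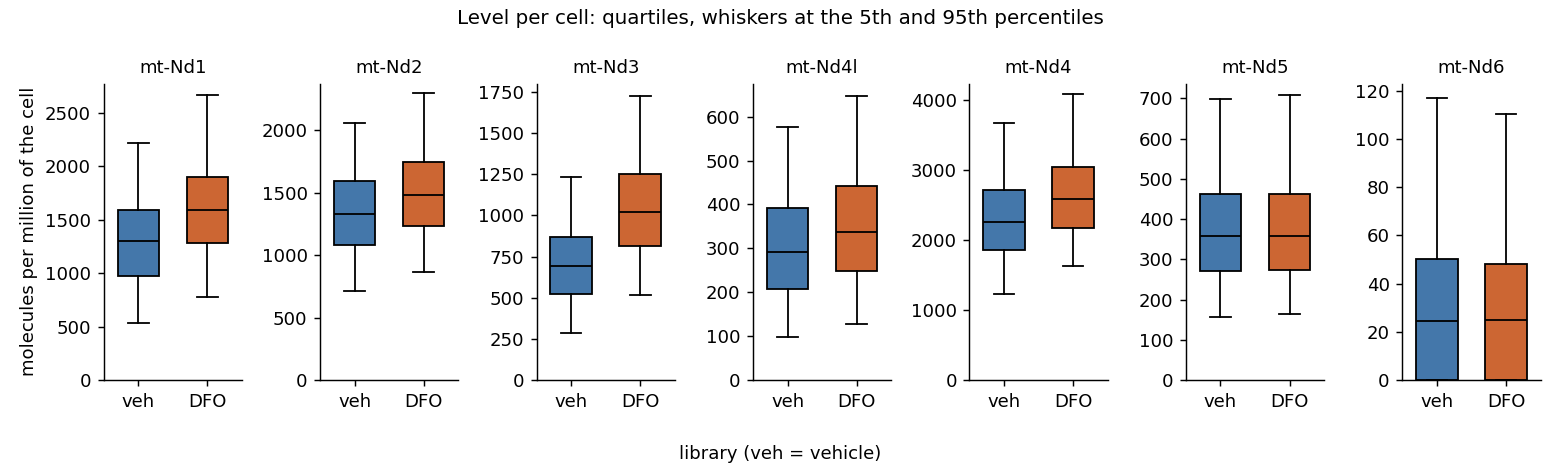
CPM of the cell's own molecules (y axis) for each of the 7 genes in vehicle (veh, blue) and DFO (orange) cells; boxes span the quartiles, lines mark medians and whiskers run from the 5th to the 95th percentile. The DFO box of mt-Nd3 is shifted upward, from a median of 694 to 1020, while the boxes of mt-Nd5 and mt-Nd6 overlap almost fully.

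All cells were grouped into 9 clusters without using mitochondrially encoded genes. By its leading genes cluster 0 was megakaryocyte-like, cluster 4 neutrophil-monocyte-like and cluster 5 HSC-like, and the other clusters were left unnamed. In the HSC-like cluster (519 vehicle and 642 DFO cells) the level of mt-Nd3 was 739 CPM for vehicle and 1032 CPM for DFO. In the megakaryocyte-like cluster it was at 708 and 1021 CPM, and in the neutrophil-monocyte-like cluster at 642 and 932 CPM. In every cluster mt-Nd3 had the highest log2 difference of the 7 members, from 0.48 in the HSC-like cluster to 0.58 in cluster 7. Of the vehicle cells 23.0% fell in the megakaryocyte-like cluster and of the DFO cells 17.0%, and the log2 difference of mt-Nd3 inside it was 0.53.

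Within clusters, the log2 difference of mt-Nd1 ranged from 0.23 to 0.34, and the intervals of mt-Nd1, mt-Nd2, mt-Nd3, mt-Nd4l and mt-Nd4 lay above 0 in 9 of 9 clusters. The interval of mt-Nd5 lay above 0 in cluster 8 alone (0.11, 0.0087 to 0.21) and included 0 in the others. For mt-Nd6 the interval lay below 0 in clusters 2 (-0.16) and 6 (-0.17) and included 0 in the others, among them the HSC-like cluster, where the value was 0.12 (-0.069 to 0.32). In cluster 2 mitosis genes such as Nusap1 and Ube2c led, and in cluster 6 Il1rl1 and Gata1 were among the leading genes. The count of mt-Nd6 is small, with 82 molecules in the DFO cells of cluster 8, so a difference of the size seen over all cells was not detectable there.

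The level of complex I also differed between clusters. In vehicle the sum of the 7 genes ran from 5451 CPM in cluster 8, where Trnp1 and Cpa3 led, over 6096 CPM in the megakaryocyte-like and 6715 CPM in the HSC-like cluster, to 12349 CPM in cluster 7. In DFO the lowest and highest were again clusters 8 and 7, at 6286 and 15192 CPM. Cluster 7 was shallow, with a median of 6945 molecules per cell, and mitochondrially encoded genes made up a median of 6.85% of its molecules. Whether its depth bears on its level of complex I was not tested. Neighbours in the vehicle order such as clusters 4 and 0 (6088 and 6096 CPM) had overlapping counting intervals, and with 1 library the order has no spread over samples. The share of mt-Nd3 among mitochondrially encoded molecules also varied, from 1.47% in cluster 8 to 2.46% in cluster 7 in vehicle and from 1.85% to 3.05% in the same clusters in DFO.

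**Figure D3:**
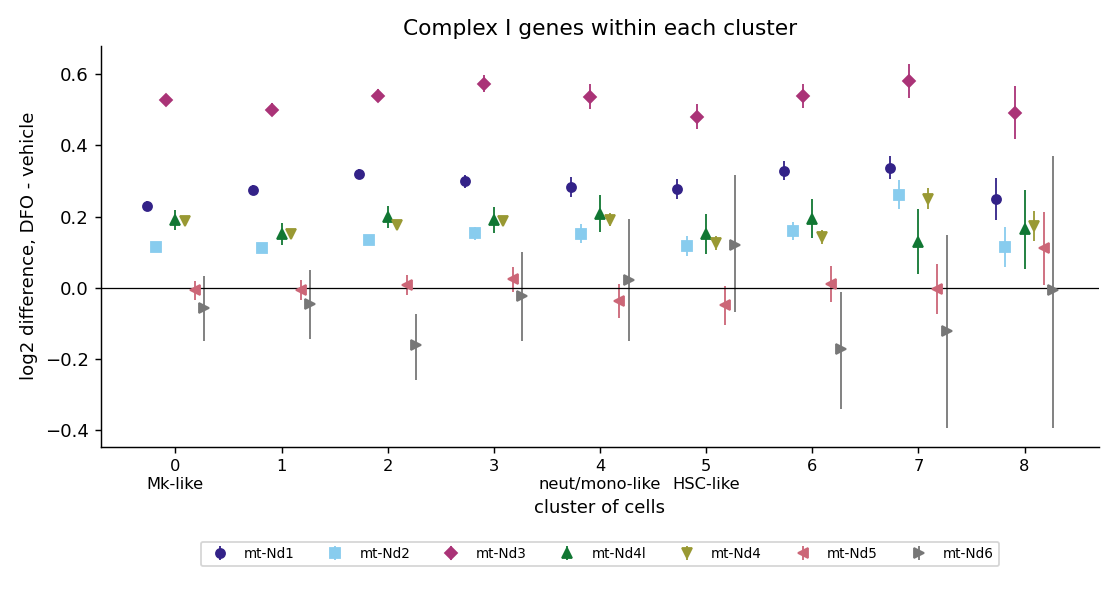
Log2 difference of DFO minus vehicle (y axis) for the 7 genes in each of the 9 clusters (x axis), with bars for the 95% counting interval. The points of mt-Nd3 form the top row in every cluster, from 0.48 to 0.58, and those of mt-Nd5 and mt-Nd6 scatter around 0.

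Other divisions of the cells, by phase, sex and depth, also had mt-Nd3 as the highest of the 7 in each class. The log2 difference of mt-Nd3 was 0.59 in cells scored as G1, 0.54 in S and 0.54 in G2/M. In female cells it was 0.54 and in male cells 0.55. Divided by depth into 5 equal classes of all cells, from the fewest to the most molecules, it was 0.62, 0.58, 0.56, 0.55 and 0.53. The difference of mt-Nd6 was 0.054 in the shallowest class and -0.00060 in the next, both with intervals that included 0, and its interval lay below 0 in the 3 deeper classes. By phase mt-Nd6 was at 0.034 in S (-0.040 to 0.11), -0.033 in G1 and -0.12 in G2/M, where alone the interval lay below 0. In female cells it was at -0.029 (-0.089 to 0.028) and in male cells at -0.094 (-0.17 to -0.023).

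The share of mt-Nd3 among mitochondrially encoded molecules moved with depth in both libraries. In vehicle it was 1.60% in the shallowest class and 2.19% in the deepest, and in DFO 2.13% and 2.77%. The share of mt-Nd1 did likewise, from 2.94% to 4.11% in vehicle and from 3.25% to 4.30% in DFO. Those of mt-Nd4 (5.85% to 6.13% in vehicle) and mt-Nd5 (0.980% to 0.983% in vehicle) differed little between the same classes. At each depth mt-Nd3 was higher and mt-Nd5 lower in DFO as a share. The median depths of the 2 libraries were close within each class, for example 27410.5 and 27406 molecules in the middle one.

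**Figure D4:**
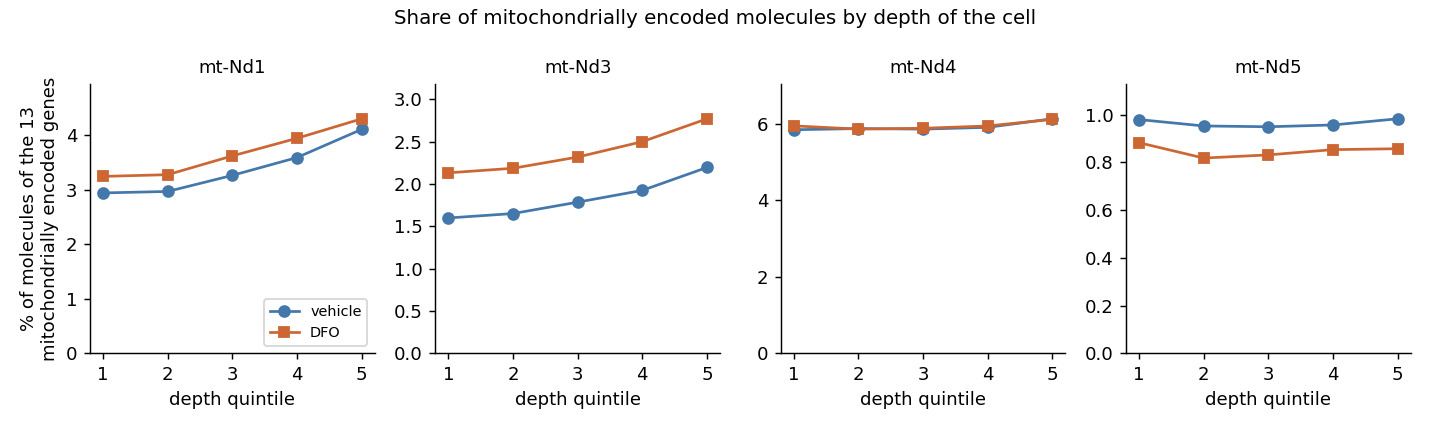
Share of the molecules of the 13 mitochondrially encoded genes (y axis, %) that belonged to mt-Nd1, mt-Nd3, mt-Nd4 or mt-Nd5, by depth quintile of the cell (x axis, 1 fewest molecules), in vehicle (blue circles) and DFO (orange squares). The line of mt-Nd3 for DFO lies above that for vehicle at each depth, and for mt-Nd5 it lies below.

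Cells of the DFO library held more mitochondrially encoded RNA in general, with a median per cell of 4.40% of molecules from the 13 genes against 3.88% in vehicle. Cells were therefore also divided into 5 classes by the share of the 6 genes outside complex I. From the lowest class to the highest, the log2 difference of mt-Nd3 was 0.49, 0.41, 0.43, 0.47 and 0.33, with the interval above 0 in each. That of summed complex I was 0.17, 0.12, 0.12, 0.15 and 0.033, smaller than the 0.24 over all cells. In these classes mt-Nd4 lay between -0.023 and 0.082 and mt-Nd2 between -0.012 and 0.076. The difference of mt-Nd5 was below 0 in 5 of 5 classes, down to -0.20 in the highest, with the interval below 0 in 3. In each class mt-Co1, mt-Co2, mt-Atp8 and mt-Cytb, genes used for the division, were also below 0, and mt-Atp6 and mt-Co3 above it. The division sets the sum of these 6 genes nearly equal, so a smaller difference over all cells can turn negative through the division itself. The direction of mt-Nd6 turned in this division: it was 0.0094, 0.10, 0.098, 0.075 and -0.13 from the lowest class to the highest, with the interval above 0 in 2 classes and below 0 in 1. In every class mt-Nd3 and mt-Nd1 (0.060 to 0.26) were higher in DFO. The classes were not fully matched. In the lowest, the 6 other genes summed to 25079 CPM in vehicle and 26238 CPM in DFO (log2 difference 0.065), and in the other classes the log2 difference of that sum lay between -0.012 and 0.0072. Median depth also differed, for example 19189.5 molecules in vehicle and 21768.5 in DFO in the highest class, and its part in these values was not tested.

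The nuclear genes of complex I lay around 0 rather than around the 0.19 of the mitochondrially encoded ones. Lists were compared by the number of members past 0.1 on the log2 scale, beside all 8886 genes at a mean of 5 CPM or more, of which 19.2% were higher and 13.97% lower in DFO by that much. Of the 7 nuclear core subunits, which hold the flavin and the iron-sulfur clusters, none was higher by 0.1 and 1 was lower, with a median of -0.026. The lowest were Ndufs8 (-0.17) and Ndufs7 (-0.087), which carry iron-sulfur clusters near the ubiquinone site, and the highest were Ndufs1 (0.037) and Ndufs3 (-0.0089). Of 29 accessory subunits 4 were higher and 6 lower by 0.1, with a median of 0.0052. Among them Ndufa5 (0.17) and Ndufa12 (0.16) were highest and Ndufv3 (-0.19) and Ndufb9 (-0.14) lowest. Of 18 assembly factors 2 were higher and 2 lower by 0.1, with a median of 0.027. Ndufaf4 (0.19) and Ndufaf6 (0.11) were the highest of these, and Ndufaf3 (-0.18) and Dmac1 (-0.14) the lowest.

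Genes that make and process mitochondrial RNA had medians slightly above that of all genes, 0.019. Of 15 genes of mitochondrial transcription and replication 13 were above 0, as were 57.9% of the 8886 genes, 5 were higher by 0.1 and 1 was lower, with a median of 0.066. The highest were Mterf3 (0.28), of the mitochondrial transcription termination factor family, and Ssbp1 (0.22), the mitochondrial single-strand DNA binding protein. The lowest were Mterf2 (-0.12) and Polrmt (-0.031), the mitochondrial RNA polymerase. Of 25 genes of mitochondrial RNA processing and stability 5 were higher and none was lower by 0.1, with a median of 0.052. Highest were Fastkd3 (0.19) and Trmt10c (0.19), a subunit of mitochondrial RNase P, and lowest were the other 2 subunits of that enzyme, Hsd17b10 (-0.095) and Prorp (-0.090, listed as 1110008L16Rik). No gene named from these lists had a log2 difference above that of mt-Nd3. The interval of Mterf3 (0.24 to 0.37) included the 0.29 of mt-Nd1, so Mterf3 and mt-Nd1 could not be ranked. Mterf3 is also a low gene, for which the log2(CPM + 1) scale understates the difference.

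**Figure D5:**
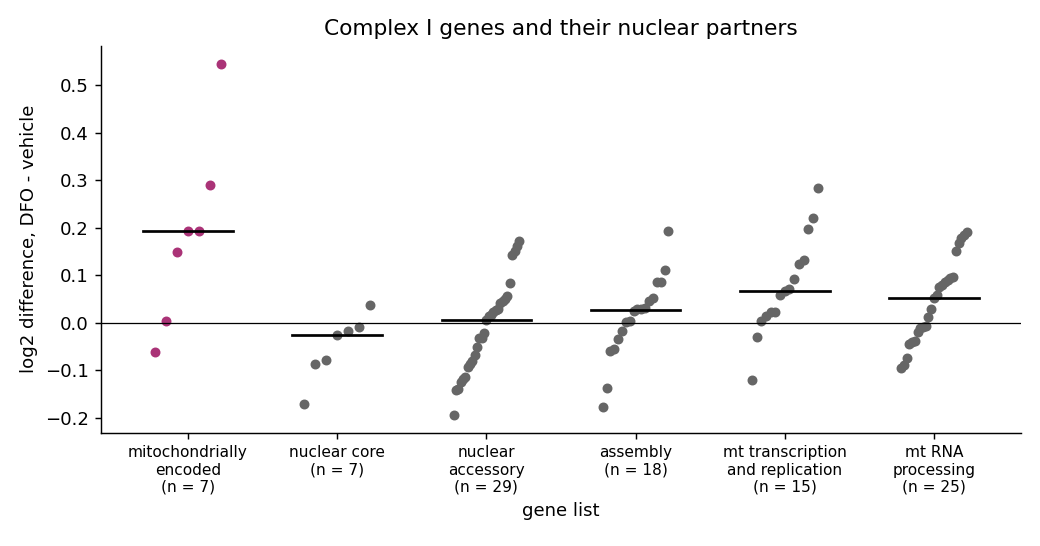
Log2 difference of DFO minus vehicle (y axis) for each gene of the mitochondrially encoded complex I genes and of 5 lists of nuclear genes (x axis), with a line at the median of each list. The median is 0.19 for the mitochondrially encoded genes and between -0.026 and 0.066 for the nuclear lists.

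How the members varied together was described across single cells. Pearson correlations of the deposited log values were computed over 8708 vehicle and 9852 DFO cells, and all values of a cell share its total as denominator. Of the member pairs mt-Nd1 and mt-Nd3 had the highest correlation, 0.68 in vehicle and 0.69 in DFO. The gene mt-Nd4 followed mt-Atp6 most closely of the 12 other genes (0.70 and 0.72). Its overlap partner mt-Nd4l had its highest correlation with mt-Nd4 (0.46 and 0.37), and so did mt-Nd5 (0.37 and 0.36). The correlations of mt-Nd6 with the other members lay between -0.091 and 0.086, which in counts this sparse is not a finding.

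Among 9258 genes outside the 13 that were seen in at least 10% of cells of both libraries, those most like summed complex I were Actb (0.29 in vehicle and 0.39 in DFO), Rpgrip1 (0.28 and 0.33) and Set (0.31 and 0.29). For mt-Nd3 they were Set (0.31 and 0.28), Ppp1r14b (0.28 and 0.25) and Ybx1 (0.29 and 0.24). For mt-Nd5 they were Gm42418 (0.30 and 0.32), Pabpc1 (0.21 and 0.20) and Actb (0.16 and 0.24). Rpgrip1 and Gm42418 were among the leading genes of the shallow cluster 7, where complex I was highest. These correlations include its cells, and the part of that cluster in them was not tested. For mt-Nd6 the highest were Hnrnpa3 (0.18 and 0.18), Hnrnpa2b1 (0.17 and 0.14) and Gm26917 (0.15 and 0.14), all weak. The opposite end held stronger values. The gene least like summed complex I was Aldoa, a glycolytic enzyme, at -0.60 in vehicle and -0.57 in DFO, followed by the glycolytic genes Gapdh (-0.48 and -0.51) and Gpi1 (-0.47 and -0.45). These 3 genes were chosen after their values were seen.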

How the data were processed

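Per the submitters' processing notes, Cell Ranger 3.0.2, Trim Galore 0.6.5, FastQC 0.11.9 and mm10 were used. For each of the 2 libraries the authors deposited a table of natural log values per gene and cell. Nothing in the labels or headers states the cell filter or the handling of reads with several matches. In both tables every cell's values are ln(1 + 27408 × molecules / total), and all 44114455 and 49560434 nonzero values gave whole molecules within 0.05. For each library, molecules were added up over cells and scaled to CPM. Differences are DFO minus vehicle in log2(CPM + 1), which understates differences of low genes. With 1 library per group no test was run. Intervals are exact Poisson (CPM) or Clopper-Pearson (shares), and those of ratios between genes add the counting errors. Molecules not listed in the tables were 0.00734% and 0.00684%.

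All deposited cells were used and no doublets were removed, but 2 alternatives left out the highest 10% of cells by molecules or the cells with molecules of both sexes (211 vehicle, 335 DFO). Cells were clustered together with scanpy 1.11.5 and leidenalg 0.10.2 (2000 variable genes without mitochondrially encoded, ribosomal protein and cycle genes, 30 components, 15 neighbours, resolution 0.5). Clusters were named from marker lists. Sequences and positions came from the GENCODE M21 transcripts, and nuclear copies were found with BLAST 2.17.0. Python 3.11.15, numpy 2.4.6, scipy 1.17.1 and pandas 2.3.3 were used, and the recovery of molecules, sums and differences was tested on simulated data. The 7 genes and the lists were chosen with earlier results of these data known. The text names all 7 genes, the 2 highest and 2 lowest of each nuclear list, the 3 genes most like a member across cells, and the other mitochondrially encoded genes as comparison. Alternatives changed the scaling, pseudocount, cell filter, depth, sex and cluster weights.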

Additional observations from a re-analysis of the deposited data

How the results depend on the processing

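The median log2 difference of the 7 genes, 0.193 with all cells, stayed above 0 in all 14 alternatives. It was 0.172 with median-of-ratios scaling, 0.175 with equal cluster shares, 0.185 in female and 0.2 in male cells, 0.188 with a pseudocount of 10 CPM and also without the highest 10% of cells by molecules, 0.2 as a mean over cells and 0.201 over nuclear molecules only. The distance from the highest to the lowest gene stayed between 0.566 and 0.639. The share of mt-Nd3 among mitochondrially encoded molecules, 1.91% in vehicle and 2.45% in DFO, was 1.84% and 2.39% as a mean over cells, 1.83% and 2.35% with thinned cells, 1.82% and 2.36% without the highest 10% of cells, and 1.89% and 2.4% in female cells. With the 2 alternatives chosen after seeing the data it was 1.9% and 2.42% without cells of both sexes and 1.9% and 2.43% without the shallow cluster. The log2 difference of mt-Nd3 ranged from 0.524 to 0.571 and that of mt-Nd6 from -0.0943 to -0.0295. The sign of mt-Nd5 was not stable: it was -0.012 with thinned cells, -0.0182 with median of ratios, -0.000499 with cells of at most 10% mitochondrial share and at least 1000 genes, and -0.000543 with equal cluster shares. No paired analysis was possible because each group has 1 library. The count of mt-Nd6 was the smallest of the 7, with 8587 and 8946 molecules in all, and no setting replaces a second culture.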
